A study of Mus musculus with 11 samples.

Results

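Skin of mice with chronic graft-vs.-host disease after an allogeneic bone marrow transplant (allo-WT, 3 mice) was compared with skin of mice after a syngeneic transplant (3 mice), over every gene row of an innate immunity panel. These are 6 of the 11 mice measured, chosen by the transplant type and recipient in the sample labels, and the other 5 are allogeneic recipients without mast cells (allo-MCd). Both groups compared here were female C57BL/6J recipients, used at 8 to 10 weeks of age, with an intact Kit gene. All received 850 cGy of radiation and an intravenous transplant of bone marrow cells with splenocytes, and skin from the nape of the neck was taken after week 7. Donors were LP/J for allo-WT and C57BL/6J for syngeneic mice in the study's methods, but the labels' protocol text names LP/J cells throughout, and the group names follow the methods. The syngeneic group shares the irradiation and the transplant, so it is a control for donor mismatch and not for unmanipulated skin. Each group comes from 1 donor and recipient strain pair, and whether the 3 mice of a group were transplanted on the same day is not given in the sources used here. The assay, the Myeloid Innate Immunity panel of NanoString, took 100 ng of skin RNA per mouse and counts single RNA molecules with color-coded probes.

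In chronic graft-vs.-host disease, donor T cells respond to recipient tissue, and leukocytes drawn in by chemokines accumulate in the skin. Chemokines are small secreted proteins sorted by the receptors they act on. CC chemokines such as Ccl2 and Ccl5 attract monocytes and effector T cells, CXCR3 ligands are induced by interferon gamma and attract activated T cells, and CXCR2 ligands attract neutrophils. The disease in this strain pair is known for dermal fibrosis, in which fibroblasts lay down collagen.

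All values are normalized counts, on the scale the authors deposited, and are given for mouse 1, 2 and 3 of a group in that order. Differences are log2(value + 1) of allo-WT minus syngeneic with their standard error (SE), and a gene was called where limma's p, adjusted over all 716 genes tested, was at most 0.05. Adding 1 understates the change of low genes. The exact permutation test of 3 mice against 3 cannot go below 0.1, and it gave 0.1 for every gene whose groups did not overlap. Each mouse yielded 831632 to 1460260 recovered counts, with background, taken as 2 SD above the negative control mean, at normalized values of 15.7 to 37.5. The lowest total belonged to allo-WT mouse 1, where the brightest positive control reached 3975 counts, compared with 17615 to 27287 elsewhere. In the 6 mice the geometric mean of the 20 candidate reference genes lay between 1103.97 and 1103.98, so the deposited scale holds these genes level as a group. Individually, Gusb, Ppia and Nubp1 were called higher in allo-WT, and Sdha and Oaz1 lower. A second scale, in which each mouse was brought to the same median gene, lowered the median difference of all genes by -0.25, from 0.20 to -0.052, and is given as the median scaling. Genes were named by their rank of change within a gene list or over all genes, and Ccl7, Ccl8, Ccl9, Ccl11, Ccr2, Ccr6, Cxcr3, Irf8, Mx1, Ido1, H2-Aa, Cd74, Ear3, Epx, Prg2, Nos2, Il33, Col12a1, Myod1 and the reference genes just named are exceptions chosen after their values were seen.

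Of the 716 genes tested, 198 were higher in allo-WT skin (27.7%) and 106 were lower (14.8%), or 42.5% in either direction. The sizes depended on the scale. Among the higher genes 63 differed by over 4-fold and 28 by over 8-fold, whereas among the lower genes 20 differed by over 4-fold and 1 by over 8-fold. The median size of a called difference was 1.46 on the log2 scale for the higher and 1.30 for the lower genes. Under the median scaling the same genes had median sizes of 1.21 and 1.56, with 24 of the higher and 9 of the lower over 8-fold. Of those called, 190 of the higher (26.5% of the genes tested) and 95 of the lower (13.3%) did not overlap between the groups. Over all genes tested, called or not, 239 had every allo-WT mouse above every syngeneic mouse (33.4%) and 145 every allo-WT mouse below (20.3%), 53.6% together. The balance between gains and losses depended on the scale. Higher genes were 65.1% of the calls on the deposited scale and 46.3% under the median scaling, which called 171 higher (23.9%) and 198 lower (27.7%), 51.5% together. All 171 were among the 198 higher genes on the deposited scale, and all 106 lower genes were kept. Leaving out syngeneic mouse 1 gave 70 lower genes, and leaving out syngeneic mouse 3 gave 63.

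**Figure D1:**
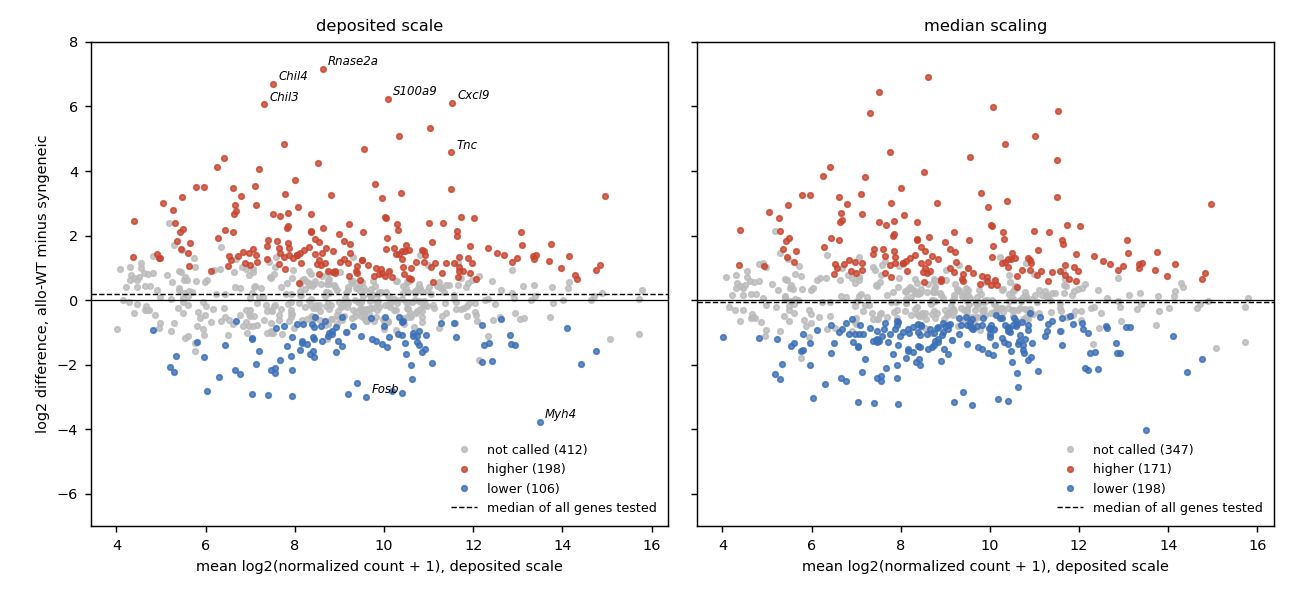
Each point is 1 of the 716 genes, with its mean log2 level over both groups on the horizontal axis and its log2 difference, allo-WT minus syngeneic, on the vertical axis, on the deposited scale (left) and under the median scaling (right). Red and blue mark genes called higher and lower, 198 and 106 on the left and 171 and 198 on the right, and the dashed line is the median of all genes, 0.20 and -0.052.

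Among genes whose groups did not overlap, and outside those that the study plotted, the 12 largest rises included Rnase2a, Chil4, S100a9, Cxcl9, Chil3, S100a8, Cxcl10, Mmp13, Tnc, Cxcl11 and Cxcl5, with differences from 7.17 down to 4.12. They hold an eosinophil ribonuclease, chitinase-like proteins, neutrophil proteins, CXCR3 ligands, a collagenase and a matrix glycoprotein. The 12 largest falls by the same rule were Myh4, Fosb, Smarcd3, Cttnbp2, Cdh4, Sfrp4, Col15a1, Havcr2, Elovl6, Serpinb7, Ccr4 and Cdh2, with differences from -3.76 to -2.27. These include a muscle myosin, a basement membrane collagen, a Wnt antagonist, a fatty acid elongase and adhesion molecules of the cadherin family. These 11 rises were called without any 1 mouse. Among the falls, Fosb was not called without syngeneic mouse 1 (-2.52, adjusted p = 0.0509) and Ccr4 not without allo-WT mouse 1 (-1.92, adjusted p = 0.0532).

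**Figure D2:**
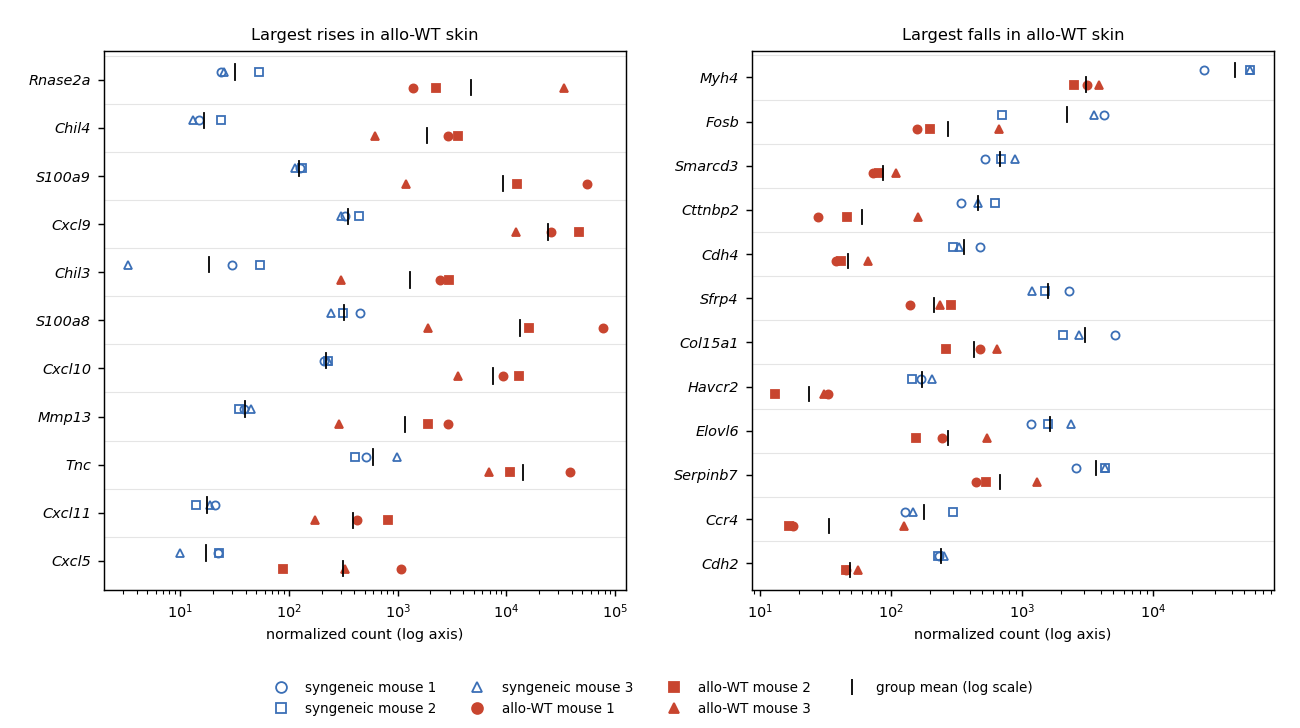
Normalized counts of 11 of the 12 genes with the largest rise (left) and the 12 with the largest fall (right), on log axes, with 1 symbol per mouse, open blue for syngeneic and filled red for allo-WT, and a black tick at the group mean on the log scale. Red and blue symbols are apart because genes were chosen for it, and for S100a8, S100a9 and Rnase2a the allo-WT mice lie more than 20-fold apart.

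All 9 CC chemokines of the monocyte and effector T cell group, Ccl2 to Ccl9 and Ccl12, rose, with a median difference of 3.33 (3.08 under the median scaling), beside 27.7% of all genes tested. Ccl5, which attracts effector T cells, measured 193, 90.9 and 182 in syngeneic and 2723, 6554 and 3072 in allo-WT skin, a difference of 4.68 (SE 0.64, adjusted p = 0.000333). Ccl8, another ligand of monocytes and T cells, measured 11705, 9147 and 10523 in syngeneic and 111342, 75024 and 109106 in allo-WT skin. This difference of 3.22 had an SE of 0.25 and an adjusted p of 8.76e-06, and each group stayed close together. Ccl7, a monocyte attractant, rose by 3.33 (SE 0.35, adjusted p = 7.16e-05), from at most 544 in syngeneic to at least 3571 in allo-WT skin. The smallest rise was that of Ccl9, at 1.26 (SE 0.35, adjusted p = 0.0127). Of their receptors, Ccr1 rose from 202, 331 and 258 to 1917, 1009 and 1244 (2.37, SE 0.33, adjusted p = 0.000376), while Ccr2, the receptor of inflammatory monocytes, was not called (0.76, SE 0.34, adjusted p = 0.0886).

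The 3 CXCR3 ligands rose further, by a median of 5.08. Cxcl9 measured 326, 441 and 302 in syngeneic and 25420, 46623 and 12136 in allo-WT skin (6.11, SE 0.63, adjusted p = 7.16e-05). Cxcl10 went from 211, 227 and 228 to 9289, 12966 and 3554 (5.08, SE 0.54, adjusted p = 7.16e-05). Cxcl11 was at 21.0, 14.1 and 18.7 in syngeneic skin, where 1 of the 3 mice was above background, and at 423, 819 and 174 in allo-WT skin (4.40, SE 0.57, adjusted p = 0.000305). For each of the 3 genes allo-WT mouse 2 was the highest and mouse 3 the lowest of the group. Their receptor Cxcr3, carried by activated T cells, rose by 1.26 (SE 0.38, adjusted p = 0.0194), a call lost without syngeneic mouse 2 (1.00), syngeneic mouse 3 (1.28) or allo-WT mouse 3 (0.95), with adjusted p from 0.0505 to 0.0731.

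Cxcl9 and Cxcl10 are neighbouring genes, and the 250 bases before the start of each are shown because these genes moved together and are textbook targets of interferon signalling. The core of the interferon-stimulated response element (ISRE), spelled GAAA, any 2 bases and GAAA, and TTCNNNGAA, the core of the interferon gamma-activated site (GAS), were searched on both strands. Of all 32851 RefSeq mouse promoters of this length, 2.98% hold the first and 7.02% the second. Capitals mark a match to the ISRE core, which begins 213 bases before the Cxcl10 start and overlaps no GAS core match. These letters of either motif are not in the Cxcl9 window.
Cxcl9, chr5:92328080-92328329 of GRCm38.p6, minus strand: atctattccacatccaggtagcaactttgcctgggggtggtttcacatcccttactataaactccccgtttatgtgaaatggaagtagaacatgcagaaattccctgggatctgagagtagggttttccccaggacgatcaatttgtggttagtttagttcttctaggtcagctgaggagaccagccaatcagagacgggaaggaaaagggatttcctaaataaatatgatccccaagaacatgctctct
Cxcl10, chr5:92348890-92349139 of GRCm38.p6, minus strand: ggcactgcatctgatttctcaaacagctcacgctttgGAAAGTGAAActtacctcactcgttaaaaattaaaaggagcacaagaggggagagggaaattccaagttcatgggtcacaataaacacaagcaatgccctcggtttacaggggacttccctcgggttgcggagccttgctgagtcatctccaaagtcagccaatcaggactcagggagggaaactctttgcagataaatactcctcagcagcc
The promoter table held 551 of the 716 genes tested and 152 of the 198 higher genes, under 80% of either, so no share over the higher genes was read from it.

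Of 16 interferon response genes tested, the 3 CXCR3 ligands included, 13 were higher (81.3%, against 27.7% of all genes) and 0 lower, with a median difference of 1.70 (1.45 under the median scaling). Irf1, an interferon-induced transcription factor, went from 1263, 1774 and 1203 to 8224, 11707 and 6042 (2.58, SE 0.40, adjusted p = 0.000509). Its highest value was in allo-WT mouse 2, and the groups did not overlap. Irf8, Mx1 and Ido1 did not pass the test. Ido1, which degrades tryptophan, was at 12.7, 462 and 53.7 in allo-WT against 21.0, 27.1 and 15.4 in syngeneic skin, so that mouse 2 stood apart and the groups overlapped. Ifng, the gene for interferon gamma itself, was low, at 8.98, 22.7 and 12.1 in syngeneic skin with 1 of 3 mice above background, and at 96.3, 172 and 61.3 in allo-WT skin (2.80, SE 0.42, adjusted p = 0.000462).

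Antigen presentation genes were counted by class. Of 12 class I genes tested, 8 were higher (66.7%, against 27.7% of all genes) and 0 lower, by a median of 1.00. The immunoproteasome subunit Psmb9 rose from 830, 894 and 676 to 2350, 2953 and 2543 (1.71, SE 0.31, adjusted p = 0.00141), and Tap1, which carries peptides into the endoplasmic reticulum, rose by 1.56 (SE 0.29, adjusted p = 0.00157). Of 9 class II genes tested, 1 was higher and 1 lower (27.7% and 14.8% of all genes were), by a median of -0.01. H2-Aa, a class II chain, measured 57289, 42678 and 52793 in syngeneic and 50915, 78819 and 61788 in allo-WT skin (0.31, SE 0.32, adjusted p = 0.421), and the invariant chain gene Cd74 differed by 0.04 (SE 0.36, adjusted p = 0.937), or by -0.22 under the median scaling. The class II gene that rose was Ctss, a cathepsin that cuts the invariant chain, from 3873, 4195 and 4370 to 20053, 20746 and 14185 (2.13, SE 0.24, adjusted p = 0.000115). H2-DMb2, a peptide-loading chain, fell by 1.36 (SE 0.41, adjusted p = 0.0199), and this call was lost without syngeneic mouse 2 (-1.30), syngeneic mouse 3 (-1.35) or allo-WT mouse 1 (-0.89), with adjusted p from 0.0549 to 0.0739. The difference between the classes was not tested.

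Of 14 T and NK cell genes tested, 10 were higher (71.4%, against 27.7% of all genes) and 0 lower, with a median of 1.57, and without allo-WT mouse 2 there were 6. Gzma, a granule protease of cytotoxic cells, measured 37.4, 44.4 and 36.4 in syngeneic and 664, 303 and 511 in allo-WT skin (3.55, SE 0.37, adjusted p = 7.16e-05). Pdcd1, the inhibitory receptor PD-1 of activated T cells, went from 29.9, 23.8 and 32.0 to 289, 494 and 238 (3.47, SE 0.51, adjusted p = 0.000416). Its ligand gene Cd274 rose from 453, 413 and 411 to 2053, 4327 and 1832 (2.57, SE 0.42, adjusted p = 0.000799). In each of these genes the lowest allo-WT mouse was above the highest syngeneic mouse by over 4-fold. Cd247, the CD3 zeta chain and the only gene measured of the T cell marker list, did not follow, at 151, 166 and 133 in syngeneic and 139, 164 and 178 in allo-WT skin (0.09, SE 0.34, adjusted p = 0.837, and -0.16 under the median scaling). In bulk skin, fewer or more cells of a type and a change of RNA per cell cannot be told apart.

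Of 11 neutrophil genes tested, 8 were higher (72.7%, against 27.7% of all genes) and 0 lower, by a median of 2.90 (2.64 under the median scaling). The methods' test on the unlogged values called 3 of them higher, and 2 after Benjamini-Hochberg adjustment. S100a9, a subunit of the neutrophil protein calprotectin, measured 126, 132 and 114 in syngeneic skin and 55154, 12613 and 1188 in allo-WT skin (6.24, SE 1.00, adjusted p = 0.000665). Its partner S100a8 went from 449, 314 and 243 to 76492, 16077 and 1892 (5.35, SE 0.95, adjusted p = 0.00129). Allo-WT mice were thus above every syngeneic mouse, and mouse 1 was over 40-fold above mouse 3 for both genes. Keratinocytes are also known to make S100a8 and S100a9. Cxcr2, the receptor for neutrophil chemokines, rose from 13.5, 22.7 and 17.6 to 499, 146 and 128 (3.51, SE 0.53, adjusted p = 0.000499), and Csf3r, the G-CSF receptor, from 108, 96.3 and 89.3 to 1143, 514 and 668 (2.90, SE 0.35, adjusted p = 0.000183). Of the defining neutrophil markers, Ly6g and Mpo were too low to be tested, with Ly6g at 93.8, 19.1 and 20.4 in allo-WT skin. Of the 4 genes tested on the list of CXCR2 ligands, which also holds the platelet chemokine Pf4, 2 were higher (27.7% of all genes were). Cxcl2 and Pf4 were not called. Cxcl5 rose from 22.5, 22.7 and 9.92 to 1072, 88.4 and 331 (4.12, SE 0.88, adjusted p = 0.0034). Cxcl1 rose by 2.18 (SE 0.67, adjusted p = 0.0205), a call lost without syngeneic mouse 1 (2.22), syngeneic mouse 2 (1.80) or allo-WT mouse 1 (1.43), with adjusted p from 0.0513 to 0.0802.

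The largest fitted difference was in Rnase2a, an eosinophil-associated ribonuclease, at 23.9 (below that mouse's background of 36.7), 53.0 and 25.4 in syngeneic and 1374, 2258 and 33826 in allo-WT skin (7.17, SE 0.95, adjusted p = 0.000333). This rank rested on allo-WT mouse 3, without which Rnase2a differed by 5.74, less than S100a9 (7.73), Chil4 (7.51), Chil3 (7.12), S100a8 (6.75), Cxcl9 (6.61) and Mmp13 (5.86). Other eosinophil genes were also highest in allo-WT mouse 3. Siglecf, a lectin on eosinophils, went from 50.9, 53.0 and 45.2 to 535, 113 and 939 (2.93, SE 0.60, adjusted p = 0.00277), and Ccr3, the eotaxin receptor, from 40.4, 24.9 and 44.1 to 499, 80.0 and 975 (3.23, SE 0.71, adjusted p = 0.00411). Alox15, a lipoxygenase abundant in eosinophils and some macrophages, rose from 85.3, 66.0 and 60.7 to 738, 164 and 2680 (3.28, SE 0.78, adjusted p = 0.00603). Il5ra, the IL-5 receptor chain, was at 114, 23.9 and 148 in allo-WT skin and overlapped the syngeneic values of 22.5, 24.9 and 25.4, and its call (1.58, adjusted p = 0.0387) was lost in 5 of the 6 fits that left out a mouse, with differences between 1.09 and 2.38. Epx and Prg2, the eosinophil granule genes, were too low to be tested, with Prg2 at 38.0, 11.9 and 63.9 in allo-WT skin. None of the 4 tested ligands of CCR3 and CCR4 passed the test, where 42.5% of all genes did in either direction. Under the median scaling 1 of the 4 was lower (27.7% of all genes were). Ccl11, the eotaxin, was at 2964, 2255 and 2741 in syngeneic and 3440, 2735 and 8394 in allo-WT skin (0.70, SE 0.43, adjusted p = 0.192). Rnase2a belongs to a family of near-identical genes, and how well its probe separates them was not tested. Ear3, another member, was at 1138, 1791 and 9507 in allo-WT and 1357, 2715 and 2158 in syngeneic skin (0.43, adjusted p = 0.659).

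The chitinase-like genes Chil3 and Chil4, which encode the secreted proteins Ym1 and Ym2 of alternatively activated macrophages and neutrophils, rose from near or below background. Chil4 measured 15.0, 23.8 and 13.2 in syngeneic and 2890, 3613 and 613 in allo-WT skin (6.71, SE 0.59, adjusted p = 2.35e-05). Chil3 measured 29.9, 54.1 and 3.31 against 2474, 2970 and 303 (6.07, SE 1.11, adjusted p = 0.00146). The paralogues ran in the same order over the allo-WT mice, and 1 of the 3 syngeneic mice was above background for each. Of 17 macrophage polarization genes tested, 7 were higher (41.2%, against 27.7% of all genes) and 1 lower, by a median of 1.01, and the methods' test after Benjamini-Hochberg adjustment called 3 higher. Nos2, the inducible nitric oxide synthase of classically activated macrophages, differed by 0.88 (SE 0.41, adjusted p = 0.0996).

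Of the 7 mast cell markers tested, 1 was higher (14.3%, against 27.7% of all genes) and 0 lower (14.8% of all genes). The protease gene Cpa3 differed by -0.07 (SE 0.90, adjusted p = 0.954), with 4410, 2170 and 3387 in syngeneic and 6690, 1015 and 4127 in allo-WT skin. Kit, the stem cell factor receptor, was at 126, 54.1 and 81.6 against 91.3, 11.9 and 75.4 (-0.89, SE 0.66, adjusted p = 0.28). The summed level of the 7 markers lay between 3851 and 9348 in syngeneic and between 2397 and 14803 in allo-WT mice, so the groups overlapped and allo-WT mice had both the lowest and the highest level. For Cpa3 and Kit, allo-WT mouse 2 was the lowest of the 6 mice. Fcer1a, the IgE receptor chain, was the marker that rose, from 123, 81.1 and 112 to 1706, 111 and 625 (2.23, SE 0.75, adjusted p = 0.031), with overlap, and the call was kept in 1 of the 6 fits that left out a mouse (without allo-WT mouse 2, 3.30, adjusted p = 0.000805).

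Of 20 macrophage and monocyte genes tested, 12 were higher (27.7% of all genes were) and 0 lower, by a median of 1.03. Under the median scaling 11 were higher, against 23.9% of all genes, by a median of 0.78. Mrc1, the mannose receptor, measured 3947, 3752 and 4642 in syngeneic and 13898, 7189 and 12400 in allo-WT skin (1.39, SE 0.28, adjusted p = 0.00253). Siglec1, a lectin of tissue macrophages that interferon induces, rose by 1.53 (SE 0.33, adjusted p = 0.00395), and the lysosomal marker Cd68 by 1.34 (SE 0.27, adjusted p = 0.00262). Csf1r, the receptor for the macrophage growth factor, was at 4058, 2350 and 3265 against 5012, 3401 and 5475 and was not called (0.53, SE 0.31, adjusted p = 0.182). Of 8 Fc receptor and signalling genes tested, 5 were higher (62.5%, against 27.7% of all genes) and 0 lower, by a median of 1.24. Fcgr4, an activating antibody receptor, measured 162, 614 and 169 in syngeneic and 3643, 4777 and 1699 in allo-WT skin (3.59, SE 0.65, adjusted p = 0.00136). The inhibitory receptor Fcgr2b rose by 1.71 (SE 0.27, adjusted p = 0.000604), or by 1.55 to 1.93 in the fits without 1 mouse. In those fits Fcgr1 and Fcgr3, also called higher, rose by 1.75 to 2.05 and 1.37 to 1.76, so Fcgr4 stood apart from all 3. The subunits of the complement starter C1q were close to each other, with C1qa, C1qb and C1qc higher by 1.20, 1.20 and 1.37 and adjusted p of at most 0.00118. C3ar1, the receptor for the complement fragment C3a, rose by 1.98 (SE 0.30, adjusted p = 0.000456). Of 14 genes tested for Toll-like receptors, which sense microbial products and nucleic acids, and their adaptors and co-receptors, 8 were higher (57.1%, against 27.7% of all genes) and 0 lower, the adaptor Myd88 among the 8, and 5 were higher without syngeneic mouse 3. The largest was Tlr13, a sensor of bacterial ribosomal RNA, from 109, 150 and 181 to 2135, 1304 and 973 (3.27, SE 0.39, adjusted p = 0.000147).

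Of 14 interleukin genes tested, 2 were higher and 1 lower, where 42.5% of all genes were called in either direction. Their median difference was nevertheless 0.81 (0.55 under the median scaling), against 0.20 (-0.052) for all genes. The difference was positive for 11 of the 14, and for 394 of all 716 genes. Neither the share called nor the median was tested against all genes. Il6 rose from 58.4, 17.3 and 54.0 to 504, 145 and 211 (2.67, SE 0.55, adjusted p = 0.00281), and Il1a, an alarm cytokine of keratinocytes, from 98.8, 169 and 130 to 1739, 979 and 330 (2.66, SE 0.47, adjusted p = 0.00124). Both were highest in allo-WT mouse 1, as was Ptgs2, the inducible cyclooxygenase, at 1891, 334 and 317 against 97.3, 96.3 and 76.1 (2.70, SE 0.58, adjusted p = 0.00363). Il33, another alarm cytokine, was at 4713, 5261 and 968 in allo-WT and 1061, 1256 and 993 in syngeneic skin and missed the threshold (1.39, SE 0.54, adjusted p = 0.0554). Among the 15 interleukin receptor genes tested, 7 were higher (46.7%, against 27.7% of all genes) and 2 lower (13.3%, near the 14.8% of all genes), and 4 were higher under the median scaling, where 23.9% of all genes were, and 3 without syngeneic mouse 1 or allo-WT mouse 1. Il1r2, the decoy receptor that binds IL-1 without a signal, fell from 2885, 2296 and 2565 to 996, 811 and 677 (-1.65, SE 0.24, adjusted p = 0.000386). Il4ra, shared by IL-4 and IL-13, rose by 1.16 (SE 0.24, adjusted p = 0.00264).

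**Figure D3:**
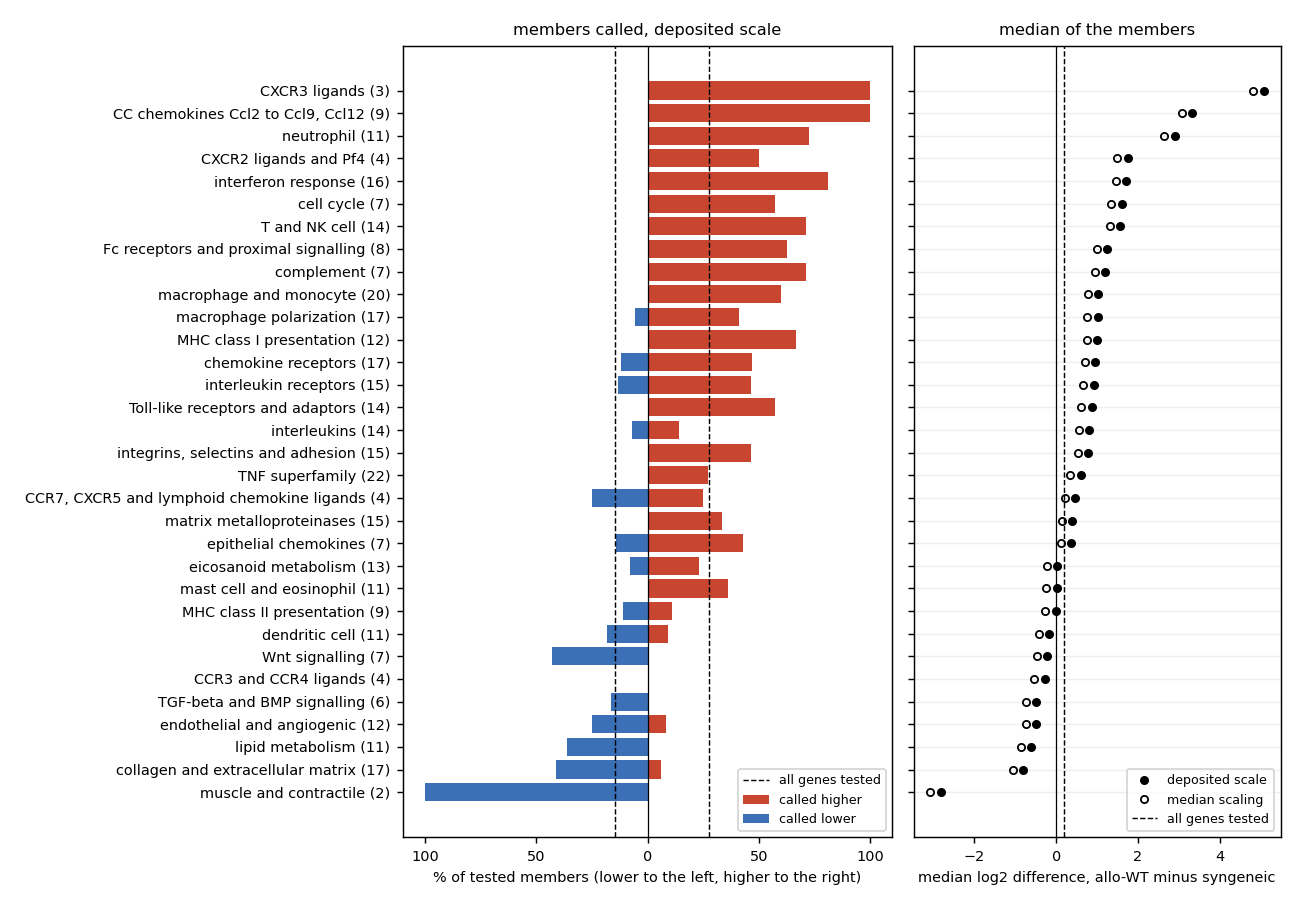
For each gene list, with the number of members tested in brackets, bars show the percentage of members called lower (blue, left) and higher (red, right), and dots the median log2 difference on the deposited scale (filled) and under the median scaling (open). Dashed lines give all 716 genes tested, 14.8% lower, 27.7% higher and a median of 0.20, and lists with 2 to 4 members take few possible values.

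Some collagen and matrix-related genes were among those lost. Of 17 genes tested on the collagen and extracellular matrix list, 7 were lower (14.8% of all genes were) and 1 higher, with a median of -0.80. Under the median scaling 9 were lower, where 27.7% of all genes were, and 1 higher, with a median of -1.06. The 7 were Col1a2, Col4a2, Col15a1, Timp3, Ctgf and the growth factors Pdgfa and Pdgfb. On the deposited scale the lower genes were 3 without syngeneic mouse 1 or syngeneic mouse 3, and 4 without allo-WT mouse 1. Col15a1, a collagen of basement membranes around vessels and muscle, measured 5143, 2048 and 2730 in syngeneic and 479, 264 and 644 in allo-WT skin (-2.82, SE 0.40, adjusted p = 0.000376). Timp3, an inhibitor of matrix proteases, fell from 10843, 7727 and 9104 to 1032, 2397 and 5765 (-1.91, SE 0.45, adjusted p = 0.00598). Both were called without any 1 mouse. The fibrillar collagens of the dermis were less even. Col1a2 was at 72324, 25661 and 44839 in syngeneic and 21723, 3535 and 17971 in allo-WT skin (-1.97, SE 0.61, adjusted p = 0.0221), and the call was lost without syngeneic mouse 1 (-1.61), syngeneic mouse 3 (-1.95) or allo-WT mouse 2 (-1.14), with adjusted p from 0.0579 to 0.0864. Col3a1 was at 105403, 56486 and 77562 against 108865, 6974 and 70361 and was not called (-1.04, SE 0.81, adjusted p = 0.3). Its difference changed sign without allo-WT mouse 2 (0.18). Col12a1, a collagen that coats fibrils and is on no list, was the 1 collagen gene tested that rose, from 226, 334 and 591 to 1947, 849 and 2182 (2.11, SE 0.42, adjusted p = 0.00225).

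A matrix glycoprotein and some single proteases rose. Tnc, tenascin C, which is made in wounded tissue, went from 513, 410 and 979 to 38417, 10686 and 6977 (4.59, SE 0.54, adjusted p = 0.000147). Mmp13, a collagenase, rose from 38.9, 34.6 and 45.2 to 2877, 1896 and 287 (4.85, SE 0.73, adjusted p = 0.000461). Mmp8, the neutrophil collagenase, was below background in all 3 syngeneic mice, at 16.5, 9.74 and 15.4, and at 555, 160 and 25.6 in allo-WT skin (3.20, SE 0.88, adjusted p = 0.0128). Of the 15 metalloprotease genes tested, 5 were higher (33.3%, near the 27.7% of all genes) and 0 lower. Under the median scaling 4 were higher and 4 lower, near the 23.9% and 27.7% of all genes. Of 6 TGF-beta and BMP signalling genes tested, 0 were higher and 1 lower (16.7%, near the 14.8% of all genes), and 3 were lower under the median scaling, where 27.7% of all genes were.

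Both muscle genes on the list of 2 were called lower, where 14.8% of all genes tested were. Myh4, the fast myosin heavy chain of skeletal muscle, was at 24768, 55424 and 55499 in syngeneic and 3131, 2504 and 3864 in allo-WT skin (-3.76, SE 0.64, adjusted p = 0.000922). Des, the muscle intermediate filament desmin, went from 7814, 12962 and 11318 to 2023, 5752 and 1970 (-1.88, SE 0.48, adjusted p = 0.00913). Myod1, a transcription factor of the muscle lineage, fell from 95.8, 74.7 and 79.4 to 22.8, 13.1 and 16.6, where no allo-WT mouse was above background (-2.21, SE 0.39, adjusted p = 0.00123). It is on no list. Smarcd3, a chromatin remodelling subunit of heart and skeletal muscle, fell from 525, 698 and 881 to 73.5, 81.2 and 110 (-2.97, SE 0.46, adjusted p = 0.000512). All 4 genes were called without any 1 mouse. A muscle layer lies under mouse skin, and the summed level of Myh4 and Des was between 32582 and 68386 in syngeneic and between 5154 and 8256 in allo-WT mice. How much muscle each piece of skin held is not given in the sources used here, and its part in these differences was not tested.

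Single vessel, lipid and Wnt genes were also lower. Of 12 endothelial and angiogenic genes tested, 3 were lower (14.8% of all genes were) and 1 higher. The lower genes were 6 under the median scaling, where 27.7% of all genes were lower, 1 without syngeneic mouse 1 and 5 without syngeneic mouse 2. Tek, the angiopoietin receptor of endothelium, fell from 1079, 642 and 867 to 223, 359 and 257 (-1.62, SE 0.37, adjusted p = 0.00517). Cdh5, the cadherin of endothelial junctions, fell by 1.41 (SE 0.39, adjusted p = 0.0123), a call lost without syngeneic mouse 1 (-1.25, adjusted p = 0.0513). Hif1a, the hypoxia-inducible factor, was the gene that rose, from 3255, 3614 and 3917 to 11852, 12695 and 6325 (1.46, SE 0.30, adjusted p = 0.00292). Of 11 lipid metabolism genes tested, 4 were lower (36.4%, against 14.8% of all genes) and 0 higher, Lpl, Pparg and Apoe among them, and each of these calls was lost without at least 4 of the mice in turn, with 0 left without syngeneic mouse 1, syngeneic mouse 3, allo-WT mouse 1 or allo-WT mouse 2. The adipocyte genes did not move as 1 group. Fabp4, the fatty acid carrier of fat cells, was at 22901, 11534 and 16677 in syngeneic and 22088, 11710 and 17477 in allo-WT skin (0.01, SE 0.48, adjusted p = 0.985, and -0.24 under the median scaling). Elovl6, a fatty acid elongase, fell from 1184, 1589 and 2395 to 246, 156 and 543 (-2.58, SE 0.54, adjusted p = 0.00292). Of 7 Wnt genes tested 3 were lower (42.9%, against 14.8% of all genes), led by Sfrp4, a secreted Wnt antagonist, from 2273, 1510 and 1186 to 139, 289 and 239 (-2.90, SE 0.39, adjusted p = 0.000333).

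**Figure D4:**
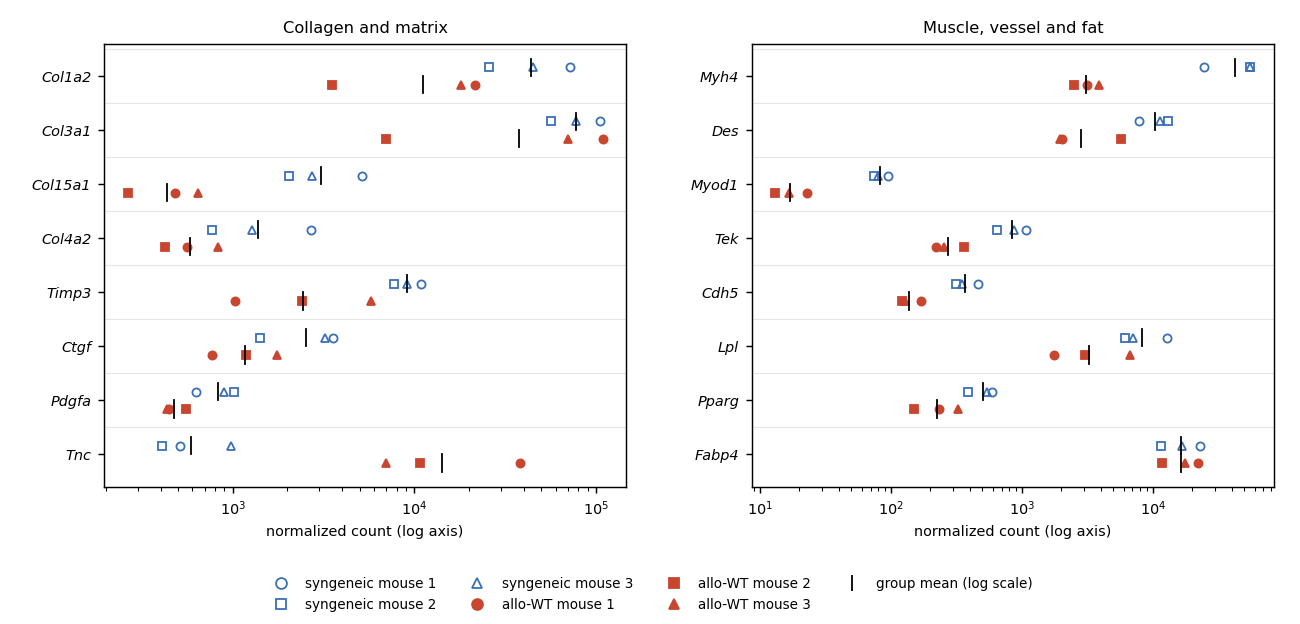
Normalized counts of 8 genes of the collagen and extracellular matrix list, the growth factor Pdgfa among them (left), and of 8 muscle, vessel and fat genes (right). Axes are logarithmic, with 1 symbol per mouse, open blue for syngeneic and filled red for allo-WT, and a black tick at the group mean on the log scale. Allo-WT mouse 2 lies below the others for Col1a2 and Col3a1, the Myh4 groups are far apart, Fabp4 overlaps fully, and Tnc is the 1 gene shown that rose.

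Single genes expressed by immune cells also fell. Ccr4, a skin-homing receptor of T cells, was at 129, 296 and 149 in syngeneic and 17.8, 16.7 and 126 in allo-WT skin (-2.36, SE 0.65, adjusted p = 0.0123). Ccr6, a receptor of IL-17-producing T cells and Langerhans cell precursors, fell from 65.8, 80.1 and 76.1 to 10.1, 11.9 and 38.3 (-2.07, SE 0.52, adjusted p = 0.00836). Both receptors were lowest in allo-WT mice 1 and 2, and 2 of the 3 allo-WT mice were above background for Ccr4 and 1 of 3 for Ccr6. Irf4, a transcription factor of dendritic cells and activated lymphocytes, went from 596, 567 and 591 to 162, 183 and 252 (-1.58, SE 0.38, adjusted p = 0.00674). Havcr2, the receptor TIM-3 of myeloid cells and exhausted T cells, fell from 169, 146 and 206 to 33.0, 13.1 and 30.7 (-2.80, SE 0.40, adjusted p = 0.000379), and 1 of the 3 allo-WT mice was above background, so its difference is imprecise. Of 11 dendritic cell genes tested, 2 were lower (18.2%, near the 14.8% of all genes) and 1 higher. Ccl27a, the keratinocyte chemokine that attracts skin-homing T cells, was at 1996, 8774 and 2808 in syngeneic and 185, 154 and 4406 in allo-WT skin. Its groups overlapped through allo-WT mouse 3, and the call (-2.87, SE 1.02, adjusted p = 0.0408) held in 1 of the 6 fits that left out a mouse, that without allo-WT mouse 3 (-4.43, adjusted p = 0.000116).

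The other genes among the 12 largest falls had varied roles. Cdh4 and Cdh2, the R- and N-cadherins, fell by 2.91 (SE 0.33, adjusted p = 0.000115) and 2.27 (SE 0.42, adjusted p = 0.0015), with Cdh2 at 235, 230 and 254 in syngeneic and 45.6, 45.4 and 56.2 in allo-WT skin. Serpinb7, a protease inhibitor of the upper epidermis, went from 2604, 4349 and 4353 to 446, 533 and 1303 (-2.44, SE 0.44, adjusted p = 0.00129). Cttnbp2, a cortactin-binding protein, fell by 2.93 (SE 0.52, adjusted p = 0.00124). Fosb, an immediate early gene, was at 4229, 702 and 3577 against 157, 198 and 667 (-2.99, SE 0.80, adjusted p = 0.0113). The panel held 2 of the keratinocyte markers sought and none of the keratins. Il1rn, the IL-1 receptor antagonist, was at 703, 1235 and 1022 in syngeneic and 2637, 2436 and 1207 in allo-WT skin, with overlap (1.04, SE 0.29, adjusted p = 0.0138), and it was not called with median scaling (0.79, adjusted p = 0.0583), nor without syngeneic mouse 1 (0.82), allo-WT mouse 1 (0.83) or allo-WT mouse 2 (0.89), with adjusted p from 0.0529 to 0.0609. Cdh1, E-cadherin, was at 2216, 4748 and 3264 in syngeneic and 6371, 4905 and 3955 in allo-WT skin and was not called (0.62, SE 0.26, adjusted p = 0.0719). Of the other marker lists, 3 fibroblast genes were measured and present in all 6 mice, and no melanocyte or red blood cell marker was measured.

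Of 7 cell cycle genes tested, 4 were higher (57.1%, against 27.7% of all genes) and 0 lower, by a median of 1.61. Under the median scaling 3 were higher and 2 lower, where 23.9% and 27.7% of all genes were, by a median of 1.35. Birc5, survivin, which acts in chromosome segregation, rose from 70.3, 101 and 93.7 to 487, 322 and 204 (1.85, SE 0.52, adjusted p = 0.0135). On the deposited scale the count of higher genes was 0 without allo-WT mouse 1, 1 without syngeneic mouse 1 and 2 without syngeneic mouse 3. Birc5 was lost without syngeneic mouse 1 (1.70, adjusted p = 0.0519) or allo-WT mouse 1 (1.55, adjusted p = 0.0583).

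The spread among the 3 allo-WT mice was compared with that among the syngeneic mice, with no test. Over all 716 genes tested, the median SD over mice on the log2 scale was 0.38 in allo-WT and 0.28 in syngeneic skin. It was 0.39 and 0.29 over the 106 lower genes, and 0.45 and 0.25 over the 198 higher genes, and 11 of the higher genes spanned over 8-fold within allo-WT against 1 within syngeneic skin. Mouse 1 was the highest of the 3 for 100 of the 198 genes, mouse 2 for 68 and mouse 3 for 30, against 282, 152 and 282 of all 716 genes. The gene groups were led by different mice. Mouse 1 was the highest for all 11 neutrophil genes tested and for 8 of the 9 CC chemokines named above. Mouse 2 was the highest for 14 of 16 interferon response genes and for 10 of 14 T and NK cell genes, and it was the lowest for 10 of 11 mast cell and eosinophil genes and for all 3 fibroblast markers. Over all 716 genes, mouse 2 was also the lowest most often, for 287, against 201 for mouse 1 and 228 for mouse 3. Mouse 3 was the highest for 78 of the 106 lower genes, so it had lost least, and it had the highest eosinophil-associated values named above. Mouse 1 also had the largest normalization factor, 2.54, and the part of this in its values was not tested.

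**Figure D5:**
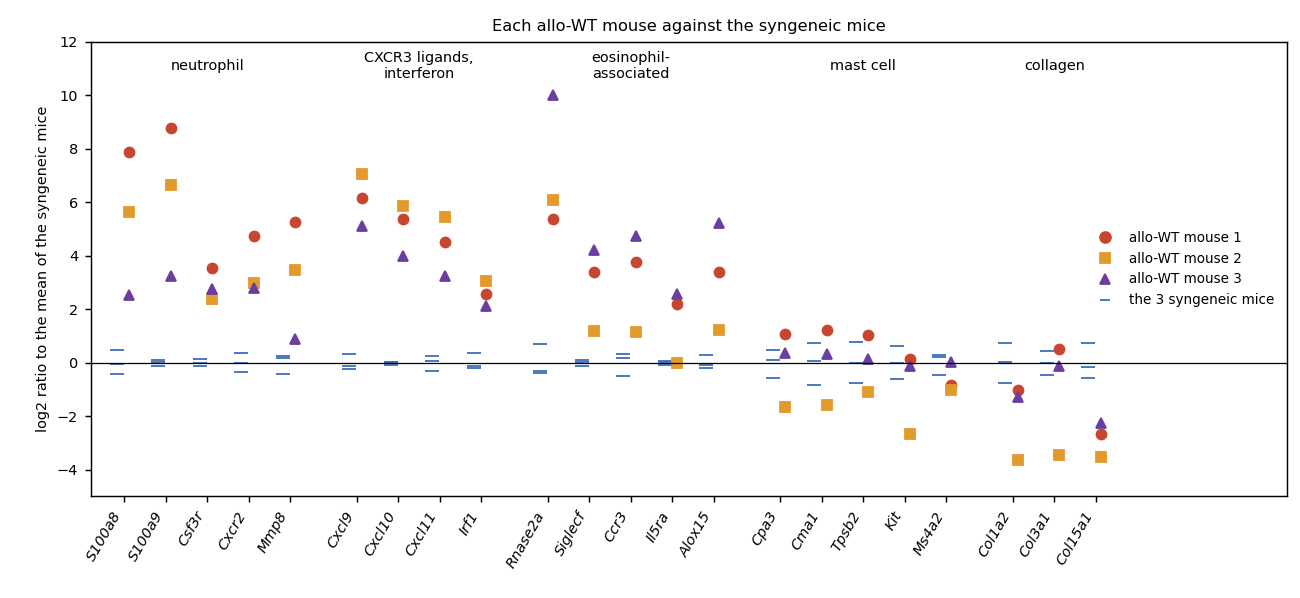
Log2 ratio of each allo-WT mouse to the mean of the syngeneic mice (filled symbols) for genes of 5 groups, with the 3 syngeneic mice as blue dashes around 0. The genes were chosen after their values were seen, and mouse 1 leads the neutrophil genes, mouse 2 the CXCR3 ligands with the lowest mast cell and collagen values, and mouse 3 the eosinophil-associated genes.

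The gene lists held 338 of the 754 genes measured. Outside them 72 genes were higher and 74 lower, of the 198 and 106 called over all 716 genes tested (27.7% and 14.8%). The examples that follow were chosen after their values were seen, for their size. Crabp2, a retinoic acid carrier of growing epidermis, rose from 281, 553 and 543 to 3884, 4160 and 1054 (2.55, SE 0.45, adjusted p = 0.00124). Pglyrp1, an antibacterial protein of neutrophil granules, rose by 2.68 (SE 0.55, adjusted p = 0.00277), and Acod1, which makes itaconate in activated macrophages, by 2.40 (SE 0.52, adjusted p = 0.00394). Areg, an epidermal growth factor relative, rose by 2.11 (SE 0.49, adjusted p = 0.00557). Gata3, a transcription factor of type 2 lymphocytes and hair follicles, fell from 3605, 5910 and 3515 to 449, 1101 and 2669 (-1.94, SE 0.48, adjusted p = 0.00786).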

How the data were processed

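Signal values were analysed as deposited by the authors, who counted RNA on an nCounter Flex instrument and normalized it in nSolver, so each value is a count multiplied by 1 factor per mouse. The deposited tables hold 754 genes, 6 positive and 8 negative controls, and 0 columns of other series. Factors, found as the value that makes all entries whole within 0.011 normalized counts, were 1.08 to 2.54 in the 6 mice, and dividing by them gave the recovered totals. Mice are separate animals and were the replicates.

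Genes at 20 or more in at least 3 of the 11 mice were tested (716), as log2(value + 1), in limma 3.58.1 (R 4.3.3) with 1 mean per group, a mean-variance trend and Benjamini-Hochberg adjustment. The allo-MCd mice added to the estimate of spread, to this filter and to the targets of the median scaling and quantile normalization. Other steps used Python 3.11.15, numpy 2.4.6, pandas 2.3.3, scipy 1.17.1 and matplotlib 3.10.9, and the tests were tested on simulated data. The methods' test over the 3 groups, with its correction for the pairs of groups but none over genes, was run as an alternative, also after Benjamini-Hochberg adjustment, and the others were another pseudocount, filters, scalings, variance models, sample sets, a replicate block, leaving out each mouse, and voom.

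The genes named were the 12 largest rises and 12 largest falls among called genes that did not overlap, leaving out 16 genes plotted in the study, up to 4 called members per list or every called member of a list of at most 6, cell type markers and Kit. The 33 lists, like the comparison itself, were chosen with earlier results of these data known. Gene symbols matched RefSeq for 744 genes, and 9 more by synonym. Promoter sequences are those of RefSeq on GRCm38.p6. Chil3 and Chil4, Rnase2a and the Ear genes, and Ccl2 and Ccl12 are close paralogues whose probe sequences were not used here, so signal shared between them is uncertain. Some genes that these rules name are not reported here, but they stay in the counts.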

Additional observations from a re-analysis of the deposited data

How the results depend on the processing

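Of 129 named genes tested, 113 were called, 82 of these under every limma and voom alternative, and none of the 113 reversed in them, while the methods' test was counted by list and over the panel, not for single genes. Without 1 mouse the genes higher were 155 to 200 and the genes lower 63 to 132, against 198 and 106, and the median difference was 0.11 to 0.21. Median scaling gave 198 genes lower with a median difference of -0.052, and quantile normalization 210 with -0.15. Median scaling gave 4 interleukin receptor genes higher and 6 endothelial genes lower, and quantile normalization 3 and 6, with 3 TNF superfamily genes higher. With the 6 mice alone, 4 interleukin receptor genes were higher and 4 collagen and matrix genes lower. The methods' test at its own threshold called 3 neutrophil and 3 metalloprotease genes higher, and 2 lipid genes and 1 muscle gene lower. After Benjamini-Hochberg it gave 59 genes lower over the panel. By list it then gave 2 neutrophil, 4 interleukin receptor, 3 macrophage polarization, 0 cell cycle and 1 metalloprotease genes higher, and 4 collagen and matrix, 0 lipid, 1 endothelial and 0 muscle genes lower. Without 1 mouse the lists ranged over 6 to 10 T and NK cell, 5 to 7 Toll-like receptor, 3 to 6 interleukin receptor and 0 to 5 cell cycle genes higher, and over 3 to 9 collagen and matrix, 0 to 5 lipid and 1 to 5 endothelial genes lower. The cause was not tested. Voom was chosen after seeing the data and gave 197 higher and 103 lower. Genes near background, such as Cxcl11, Chil3, Cxcl5, Cxcr2, Rnase2a, Mmp8 and Ifng in syngeneic skin, have imprecise differences.

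The labels give the groups the same mouse numbers, and the correlations of same-numbered mice were 0.149, 0.212 and 0.0586, so the numbers were not taken as pairs. Every mouse correlated best with its own number, a hint from the data and not from the design. With the replicate block, 189 genes were higher and 105 lower, and 4 interleukin receptor genes were higher.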
